A study of Mus musculus with 7 samples.

Results

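Myelin and astrocyte genes are here the 8 genes Mbp, Mog, Mag, Mobp, Gfap, Slc1a2, Slc1a3 and Gja1, followed across 7 mouse tissues. They were chosen by symbol, and all 8 were found among the 50226 gene names of the deposited table. The tissues were cortex, liver, kidney, skeletal muscle and 3 fat depots, namely visceral (VAT) and subcutaneous (SCAT) adipose tissue and interscapular brown adipose tissue (BAT). The mice were wild-type C57BL/6 by the labels (C57BL/6N by the study's methods), 36 weeks old and on the diet labelled NCD. Each tissue was sequenced as 1 library of rRNA-depleted RNA with no replicate, so no p-value can be computed and no difference between tissues has a replicate check. Levels are FPKM, the fragments assigned to a gene scaled for transcript length and library size, which allows levels of different genes to be set side by side. Fragment counts are not part of the table, and the depth is therefore unknown.

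Myelin is the lipid-rich membrane that wraps axons. Oligodendrocytes make it in the brain and spinal cord and Schwann cells make it in peripheral nerves, with a set of proteins that these glial cells share only in part. Mbp holds the inner faces of the myelin membrane together in both, Mag sits on the membrane next to the axon in both, and Mog, on the outer face, and Mobp are proteins of central myelin. Astrocytes contact synapses and vessels, clear glutamate through the transporters GLT-1 (Slc1a2) and GLAST (Slc1a3), couple through connexin 43 (Gja1) and build intermediate filaments of GFAP. Of these genes, Slc1a2, Slc1a3 and Gja1 are also known from cells outside the brain.

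All 8 genes are protein-coding, and 7 are placed here. In GRCm38, Mog lies at chr17:37010743-37023398 on the minus strand, Mag at chr7:30899176-30914873 on the minus strand and Mobp at chr9:120149707-120181484 on the plus strand. Gfap lies at chr11:102887336-102900912 on the minus strand, Slc1a2 at chr2:102658659-102790784 on the plus strand, Slc1a3 at chr15:8634124-8710764 on the minus strand and Gja1 at chr10:56377330-56402513 on the plus strand.

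The 250 bases before the RefSeq start site were read for 7 of the 8 genes (GRCm38.p6), and 4 are shown: Mobp, Mag and Mog, the myelin genes that stayed under 1 FPKM in every tissue but cortex, and Slc1a3, which was also high in fat. Each runs 5′ to 3′ on the gene's strand. Capitals mark the motifs searched on both strands, ACAAAG (the core bound by SOX factors such as SOX10 of myelinating glia) and TATAAA (the TATA box). CAGCTG, an E-box, was searched as well and was found in none of the 7 windows.
Mobp, chr9:120149492-120149741, plus strand: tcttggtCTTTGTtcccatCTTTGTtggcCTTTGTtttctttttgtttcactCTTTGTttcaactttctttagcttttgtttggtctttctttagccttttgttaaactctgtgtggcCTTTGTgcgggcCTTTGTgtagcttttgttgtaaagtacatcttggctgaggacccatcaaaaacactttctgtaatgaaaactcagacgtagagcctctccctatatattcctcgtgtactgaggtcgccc
Mag, chr7:30914864-30915113, minus strand: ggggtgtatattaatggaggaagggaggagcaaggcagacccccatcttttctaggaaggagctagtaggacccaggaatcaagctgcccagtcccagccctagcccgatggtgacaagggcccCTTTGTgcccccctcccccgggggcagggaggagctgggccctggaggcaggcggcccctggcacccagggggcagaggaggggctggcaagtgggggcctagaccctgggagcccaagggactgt
Mog, chr17:37023399-37023648, minus strand: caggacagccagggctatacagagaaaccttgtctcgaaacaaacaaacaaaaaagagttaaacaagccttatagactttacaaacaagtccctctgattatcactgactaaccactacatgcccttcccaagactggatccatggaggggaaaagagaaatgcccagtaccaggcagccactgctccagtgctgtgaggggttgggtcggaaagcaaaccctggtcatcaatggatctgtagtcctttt
Slc1a3, chr15:8710808-8711057, minus strand: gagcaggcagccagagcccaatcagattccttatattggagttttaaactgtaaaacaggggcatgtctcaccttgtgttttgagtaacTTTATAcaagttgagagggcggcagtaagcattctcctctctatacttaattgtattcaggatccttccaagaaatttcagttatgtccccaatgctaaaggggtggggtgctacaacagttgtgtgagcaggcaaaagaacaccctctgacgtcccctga

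The Mobp window holds 6 copies of ACAAAG, all read as CTTTGT on the printed strand, and it is the only 1 of 32851 RefSeq windows with that many (0.00304%). The Mag window holds 1 copy, and 16.5% of all windows hold at least 1. Slc1a3 has 1 TATAAA, read as TTTATA on the printed strand, a motif found in 12.4% of windows, and CAGCTG stands in 13% of them. The windows of Mog, Gfap, Slc1a2 and Gja1 hold none of these motifs. The RefSeq start sites of the Gfap and Slc1a2 windows lie 3712 and 47779 bases from the annotated 5′ end, so these windows belong to other start sites of these genes. A match describes the letters of a window and not a bound site.

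A gene was counted as enriched in cortex when it had 1 FPKM or more there and exceeded every other tissue by at least 2 in log2(FPKM + 0.1), which is 4-fold. This scale understates the ratio of genes with low values. By this rule 5 of the 8 genes were enriched in cortex: all 4 myelin genes and, of the 4 astrocyte genes, Gfap. Among the 19122 gene names with at least 1 FPKM in any tissue, 8.32% were enriched in cortex, and 8.21% of the 14928 protein-coding ones were. The median log2 ratio of cortex over the highest other tissue was 3.52 for the 8 genes and -1.43 for all names. Slc1a2, Slc1a3 and Gja1 fell short in 3 different ways, through liver, through fat and through BAT.

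**Figure D1:**
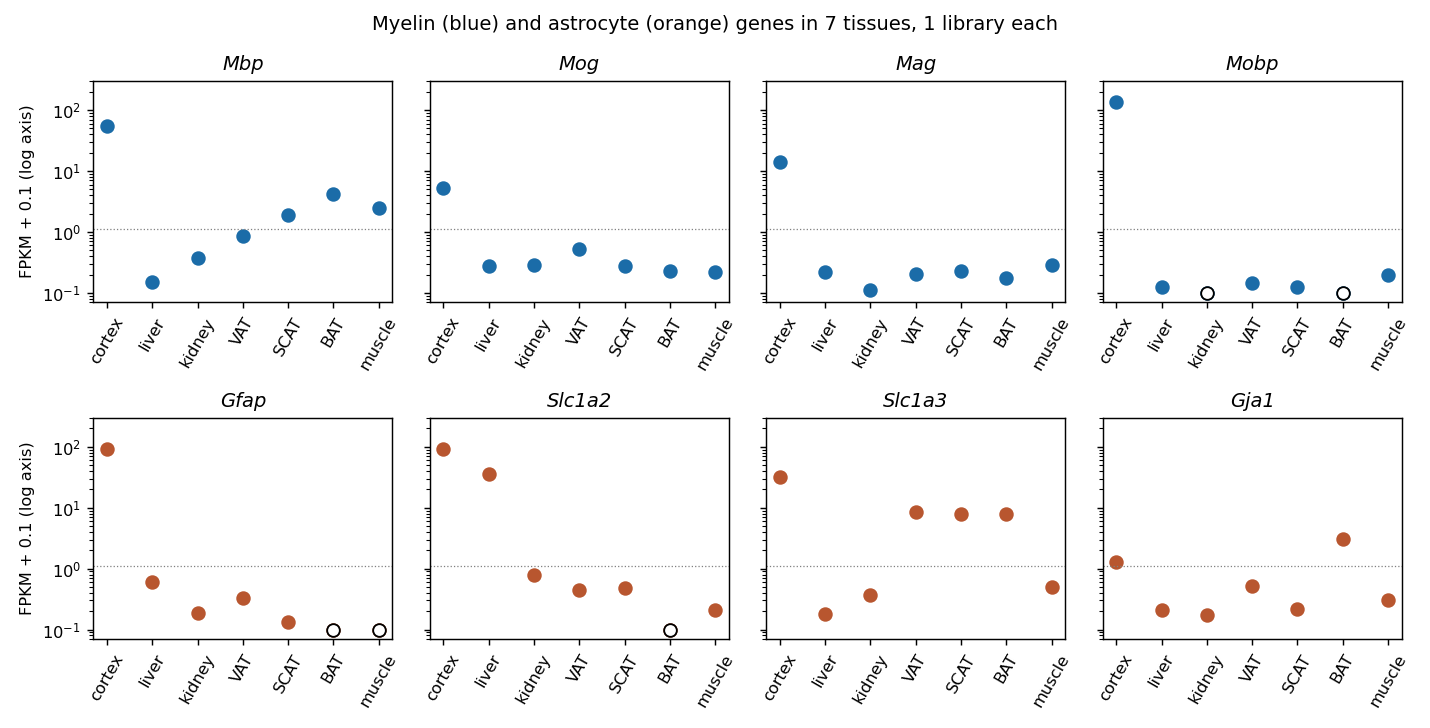
FPKM + 0.1 on a log axis for each gene in each of the 7 tissues (1 point is 1 library, no error can be given), with open circles where the gene is listed at 0 and a dotted line at 1 FPKM. Mobp drops from 134.5 FPKM in cortex to at most 0.0990 elsewhere, while Slc1a2 stays at 35.6 FPKM in liver and Slc1a3 at 7.70 to 8.51 FPKM in the 3 fat depots.

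The labels of the libraries were checked with marker genes. In cortex the neuronal genes Snap25, Slc17a7 and Camk2a summed to 388 FPKM, and outside cortex Snap25 was between 0 and 0.0907 FPKM and Slc17a7 between 0 and 0.186 FPKM. Camk2a, which muscle also expresses, had 32.7 FPKM in muscle and at most 0.446 in the other 5 tissues. Apoa1 was highest in liver (2521 FPKM) and Ckm in muscle (8592 FPKM). The liver gene Alb and the muscle gene Myh4 have no usable value in their own tissue. Liver genes were also present elsewhere, with 253 FPKM of Alb, 30.0 of Ttr and 17.7 of Apoa1 in VAT. In cortex Ttr had 195 FPKM, but Alb had 1.81 and Apoa1 0.152. The source of these signals was not tested. VAT carried the epididymal gene Lcn5 (1119 FPKM), and SCAT carried the lymphocyte genes Ms4a1 (50.6 FPKM) and Cd79a (35.6 FPKM).

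Mobp was the most abundant of the myelin genes. It had 134.5 FPKM in cortex, 0.0990 in muscle, 0.0455 in VAT, 0.0262 in SCAT and 0.0227 in liver, and it was listed at 0 in kidney and BAT. Its log2 ratio of cortex over muscle was 9.40, the largest among the 8 genes, and its cortex level lay above that of 98.7% of the 13303 names with at least 1 FPKM in cortex. In every library outside cortex the gene was therefore at or close to 0. Its locus in the table runs past the annotated end of the gene and shares its bounds with 2 other names, so the cortex level may include other reads.

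Mag encodes a sialic acid-binding adhesion protein of both oligodendrocytes and Schwann cells. It had 13.7 FPKM in cortex, 0.182 in muscle, 0.131 in SCAT, 0.117 in liver, 0.105 in VAT, 0.0780 in BAT and 0.0130 in kidney. The log2 ratio of cortex over muscle was 5.62. Muscle and SCAT, the next tissues in the order, differed by 0.29 on the log2 scale, with no replicate to judge that gap. In neither tissue did Mag follow Mbp to a level above 1 FPKM.

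Mog encodes an immunoglobulin-like protein on the outermost surface of central myelin. It was the lowest of the 4 in cortex at 5.22 FPKM, and had 0.426 in VAT, 0.189 in kidney, 0.180 in SCAT, 0.176 in liver, 0.130 in BAT and 0.120 in muscle. The log2 ratio of cortex over VAT was 3.34. The locus that carries Mog in the table shares its bounds with the neighbouring gene Zfp57, which had 3.14 FPKM in cortex, so that reads of the 2 genes might not be fully separated. Mog showed no rise in BAT or muscle, its 2 lowest tissues.

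Mbp, alone of the 4 myelin genes, reached 1 FPKM outside cortex. Its level was 54.6 FPKM in cortex, 4.11 in BAT, 2.36 in muscle, 1.78 in SCAT, 0.751 in VAT, 0.272 in kidney and 0.0498 in liver. Cortex stood 13.3 times above BAT in FPKM, or 3.70 on the log2(FPKM + 0.1) scale, which still met the rule. The locus that carries Mbp in the table runs past the annotated end of the gene and shares its bounds with 3 other names, so its values may include reads of other genes. Mbp reached 1 FPKM in 3 of the 6 tissues outside cortex, while Mog, Mag and Mobp did so in 0. Among the names with at least 1 FPKM in cortex, 89.2% had at least 1 FPKM elsewhere, so Mbp did as most of them did and Mog, Mag and Mobp did not. A fixed cut is harder to reach for a gene that is low in cortex, such as Mog at 5.22 FPKM. Relative to cortex, Mog in VAT (8.16%) stood above Mbp in BAT (7.54%), while Mag and Mobp had at most 1.32% and 0.0736%. In bulk tissue, fewer cells of a type and less RNA per cell cannot be told apart.

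The proportions of the myelin genes changed between tissues. Mbp over Mog, a ratio of FPKM, was 10.5 in cortex, 31.8 in BAT, 19.7 in muscle, 9.92 in SCAT, 1.76 in VAT, 1.44 in kidney and 0.283 in liver. Outside cortex it rests on Mog values of 0.120 to 0.426 FPKM, from the locus shared with Zfp57. Outside cortex the Mbp level was 7.54% of the cortex level in BAT and 4.33% in muscle, against 2.48% and 2.30% for Mog, 0.569% and 1.32% for Mag and 0% and 0.0736% for Mobp. In SCAT, VAT, kidney and liver the order of Mbp and Mog was the other way, with 3.26%, 1.38%, 0.499% and 0.0912% for Mbp and 3.44%, 8.16%, 3.62% and 3.37% for Mog.

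Genes of peripheral myelin were read beside these values, and they did not share a pattern. Prx, the periaxin that stabilises the myelin of Schwann cells, had 1.51 FPKM in muscle, 0.685 in BAT, 0.571 in SCAT, 0.311 in VAT, 0.262 in kidney, 0.0580 in liver and 0.0477 in cortex. Muscle, BAT and SCAT, the 3 tissues with at least 1 FPKM of Mbp outside cortex, were also the 3 highest for Prx, and liver was the lowest of the 6 for both. The order within the 3 differed, since Mbp was highest in BAT and Prx in muscle, and only muscle reached 1 FPKM of Prx. Pmp22, a compact myelin protein that other cells also make, had 13.3 FPKM in muscle, 9.15 in BAT, 8.12 in VAT, 6.09 in SCAT, 2.15 in kidney, 1.67 in cortex and 1.55 in liver. Other genes of the list were highest elsewhere, such as the sodium channel Scn7a in VAT (29.1 FPKM, with 5.34 in BAT and 5.98 in muscle), the ligand Dhh in VAT (0.621), and the receptor Ngfr (2.16) and the connexin Gjb1 (75.2) in liver. Outside cortex, 5 of the 13 genes of the list were highest in muscle, 3 in BAT, 3 in VAT and 2 in liver. Only 8 of the 13 reached 1 FPKM there. Of the 17685 names with at least 1 FPKM outside cortex, 5167 were highest in muscle, 3170 in BAT, 1248 in VAT and 3418 in liver.

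Opalin, a membrane protein of oligodendrocytes, had 1.47 FPKM in cortex and was listed at 0 in 5 tissues, with 0.00749 in VAT. In BAT and muscle, Mbp, Prx and Pmp22 had between 0.685 and 13.3 FPKM, and Mobp and Opalin were at or near 0. Other genes of the oligodendrocyte list were not, such as Cnp (1.42 FPKM in BAT, 1.62 in muscle) and the tetraspanin Tspan2 (2.87 and 3.08), and Myrf, the myelin regulatory factor, was higher in liver (4.14) than in cortex (1.11). Mag, which both glial cells use, had at most 0.182 FPKM outside cortex.

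**Figure D2:**
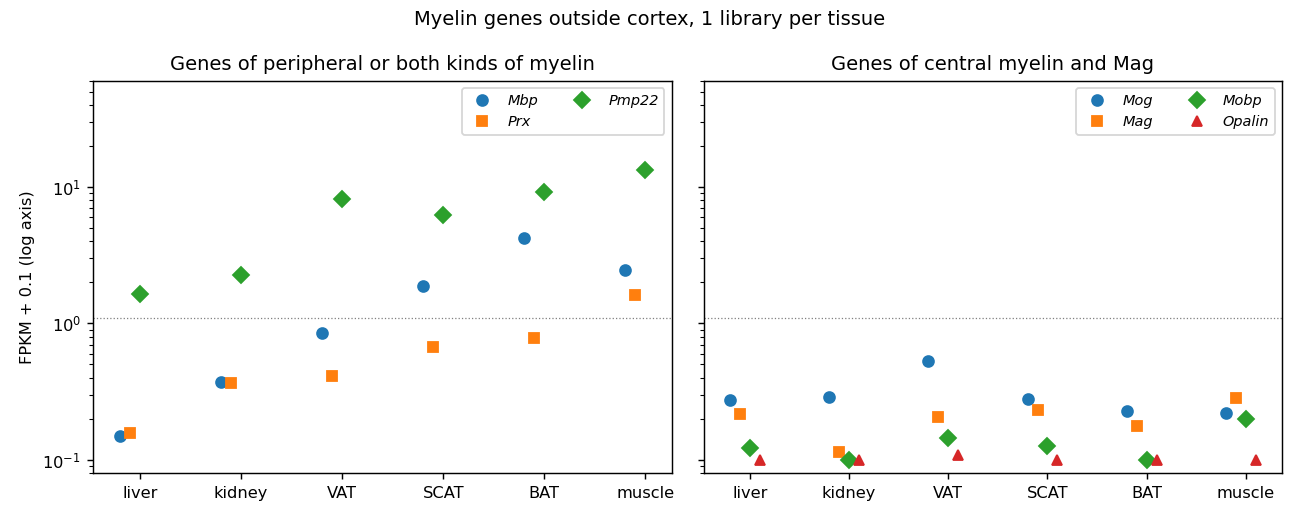
FPKM + 0.1 on a log axis in the 6 tissues outside cortex, 1 library each, for Mbp, Prx and Pmp22 on the left and Mog, Mag, Mobp and Opalin on the right, with a dotted line at 1 FPKM. Mbp (2.36 FPKM), Prx (1.51 FPKM) and Pmp22 (13.3 FPKM) are all above the line in muscle, and no point on the right is above it in any tissue. Mog and Opalin are low in cortex as well (5.22 and 1.47 FPKM), so the line is harder for them to reach. The genes drawn do not stand for their lists. Of 17 other oligodendrocyte genes, 15 reached 1 FPKM in any tissue, 9 in a tissue outside cortex and 4 in muscle. Of 13 genes of peripheral myelin these counts were 10, 8 and 5, and of all names 19122, 17685 and 13000.

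Of the 4 Schwann cell markers Prx, Ncmap, Egr2 and Sox10, 2 had at least 1 FPKM in muscle and 1, Egr2, in every other tissue. They summed to 12.8 FPKM in muscle, 7.18 in cortex, 5.99 in BAT, between 4.33 and 4.63 in VAT, liver and kidney, and 3.41 in SCAT. Egr2, which many other cells induce, gave most of this sum in every tissue (11.2 FPKM in muscle and 6.55 in cortex), so the sum did not follow Mbp. Ncmap was listed at 0 in muscle, BAT, SCAT, liver and cortex. Sox10 was under 1 FPKM in every library, with 0.581 FPKM for cortex itself. Outside cortex SCAT stood highest for Sox10 (0.150 FPKM), before BAT (0.135), muscle (0.113), VAT (0.0911), kidney (0.0494) and liver (0.0404). SCAT, BAT and muscle were also the tissues outside cortex with at least 1 FPKM of Mbp, though Mbp was highest in BAT. The order of such low Sox10 values has no replicate check. The part of Schwann cells in the Mbp level was not tested.

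Marker genes of other tissues and cells were read in the same libraries. In BAT, Ckm was at 1.93% of its muscle level, while Prx was at 45.5% and Mbp at 174% of theirs. Snap25 and Mobp were listed at 0 in BAT, and in muscle they were at 0.0315% and 0.0736% of their cortex levels, against 4.33% for Mbp. The part of carry-over between tissues in the Mbp level was not tested. In SCAT, where Mbp had 1.78 FPKM, the lymphocyte genes Ms4a1, Cd79a and Cd3e summed to 89.5 FPKM, against 0.325 FPKM in BAT. The Mbp gene also makes golli transcripts, which lymphocytes are known to use, and a gene-level value does not separate them. The part of lymphocytes in the SCAT level was not tested.

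Of 17 other genes of oligodendrocytes, 15 reached 1 FPKM in any tissue. Enriched in cortex were 7 of them: Cldn11, Opalin, Ermn, Olig1, Olig2, Hapln2 and Gpr37. Of the 19122 names that reached 1 FPKM, 8.32% were enriched in cortex. The median log2 ratio of cortex over the highest other tissue was 1.33 over the 17 and -1.43 over those names. Ermn, a cytoskeletal protein of late oligodendrocytes, had 4.20 FPKM in cortex and at most 0.0137 elsewhere. Genes of the list that are known from other cells were higher elsewhere, such as Mal (11.3 FPKM in kidney, 5.39 in cortex), the galactolipid enzyme Ugt8a (9.97 in kidney, 2.87 in cortex) and the aspartoacylase Aspa (81.7 in kidney, 73.3 in BAT, 7.30 in cortex). Of 13 genes of peripheral myelin and Schwann cells, 10 reached 1 FPKM in any tissue, and the median log2 ratio over the 13 was -2.80. Enriched in cortex were 2 of them, Drp2 and Pou3f1, a count too small to set apart from the 8.32% of all names.

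Among the astrocyte genes, Gfap, the intermediate filament protein of astrocytes, was held to cortex. It had 91.5 FPKM in cortex, 0.494 in liver, 0.223 in VAT, 0.0881 in kidney and 0.0345 in SCAT, and was listed at 0 in BAT and muscle. The log2 ratio of cortex over liver was 7.27, second to Mobp among the 8 genes. The table lists 3 loci under this name, and the 1 used, with the highest FPKM, lies opposite the annotated strand by the order of the table. The locus on the annotated strand had 22.8 FPKM in cortex and the remaining 1 had 42.9. The bounds of the locus also take in 12 other gene names, so the level of Gfap is uncertain, while all 3 loci had at most 0.494 FPKM in every tissue outside cortex.

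Slc1a2, the main glutamate transporter of astrocytes, was the most abundant of the 4 in cortex with 93.6 FPKM. It had 35.6 in liver, 0.681 in kidney, 0.381 in SCAT, 0.344 in VAT and 0.113 in muscle, and was listed at 0 in BAT. Liver stood 52.3 times above kidney in FPKM and held 38.0% of the cortex level, so that the log2 ratio of cortex over liver was 1.39 and the gene missed the rule for cortex. Among the 6 tissues outside cortex it was 4-fold highest in liver, as were 4.51% of the 17685 names with at least 1 FPKM outside cortex. Snap25 was at 0.00358% of its cortex level in liver and Mobp at 0.0169%, while Slc1a2 was at 38.0%. The source of the liver signal was not tested. The other locus of the same name, on the opposite strand by its order, had 72.0 FPKM in cortex and 13.1 in liver.

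Slc1a3, the partner transporter that astrocytes and radial glia share, divided the tissues differently. It had 32.0 FPKM in cortex, 8.51 in VAT, 7.81 in BAT, 7.70 in SCAT, 0.406 in muscle, 0.268 in kidney and 0.0782 in liver. The 3 fat depots lay close together, at 24.1% to 26.6% of the cortex level, and their order cannot be read without replicates. The other locus of the same name, on the opposite strand by its order, had 8.15 FPKM in cortex and 2.42 to 3.27 in the fat depots. As for Slc1a2, the bounds of the locus hold 1 other name. The log2 ratio of cortex over VAT was 1.90, just under 2. Without the VAT and SCAT libraries, which carried epididymal and lymphocyte genes respectively, it was 2.02 over BAT and met the rule. BAT carried the muscle genes Ckm (166 FPKM) and Myh4 (87.5 FPKM), against 1.70 and 1.45 FPKM in SCAT. The part of other cells or tissues in the Slc1a3 level of fat was not tested.

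The 2 transporters therefore took opposite places outside cortex. Slc1a2 over Slc1a3, a ratio of FPKM, was 2.93 in cortex, 455 in liver, 2.54 in kidney, 0.278 in muscle, 0.0495 in SCAT and 0.0404 in VAT, and it was 0 in BAT. Of the other 5 genes of the SLC1 family, 4 reached 1 FPKM in any tissue. Only Slc1a6, a transporter of Purkinje neurons, was enriched in cortex (1.71 FPKM), against 8.32% of all names that reached 1 FPKM. Slc1a1, the transporter of neurons and of the renal tubule, had 47.7 FPKM in kidney and 12.4 in cortex. The neutral amino acid transporter Slc1a5 had 89.5 FPKM in VAT, 58.1 in SCAT and 57.9 in BAT against 0.293 in cortex. In fat Slc1a5 and Slc1a3 were the 2 highest of the 7 SLC1 genes.

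**Figure D3:**
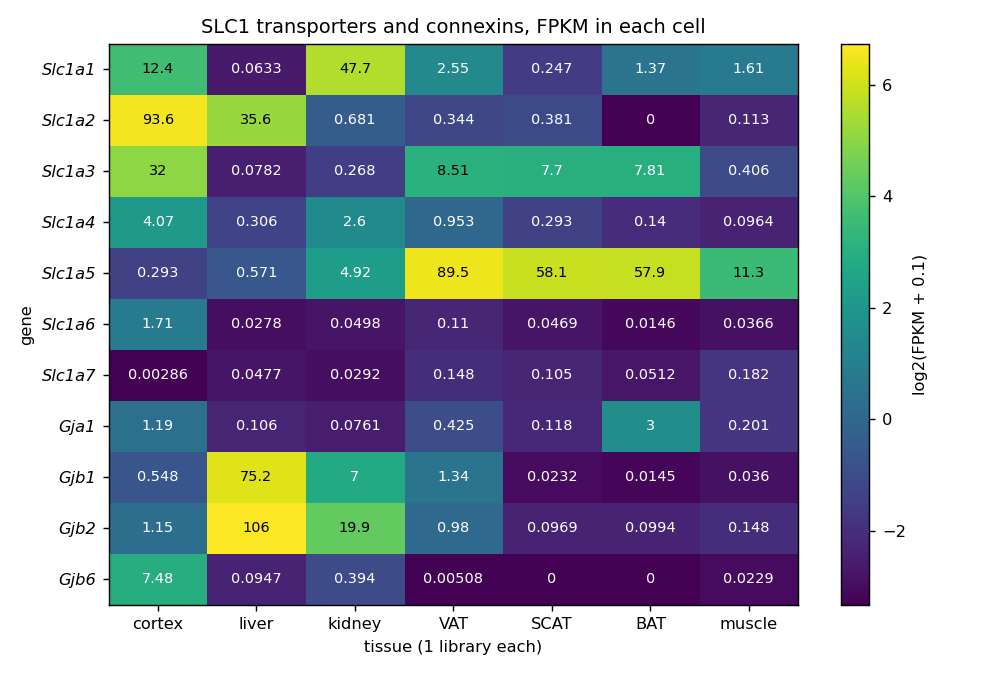
FPKM of the 7 SLC1 transporters and of the connexins Gja1, Gjb1, Gjb2 and Gjb6 in each tissue (rows are genes, columns are tissues with 1 library each), written in each cell over a colour scale of log2(FPKM + 0.1). Slc1a2 is high in cortex (93.6) and liver (35.6), Slc1a3 in cortex (32.0) and the 3 fat depots, and Gja1 peaks in BAT (3.0).

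Gja1, connexin 43, which forms gap junctions of astrocytes and of many other cells, was not highest in cortex. It had 3.0 FPKM in BAT, 1.19 in cortex, 0.425 in VAT, 0.201 in muscle, 0.118 in SCAT, 0.106 in liver and 0.0761 in kidney. The log2 ratio of cortex over BAT was -1.26. Among the 6 tissues outside cortex BAT was 4-fold highest, 2.56 above VAT on the log2 scale, as it was for 1.01% of names. With a pseudocount of 1, or with a minimum of 5 FPKM, Gja1 no longer met this rule. In cortex the gene ranked low, above 4.83% of the names with at least 1 FPKM there. Gjb6, connexin 30 of astrocytes, had 7.48 FPKM in cortex and at most 0.394 elsewhere.

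Markers of vessels and fibroblasts were set beside the Gja1 level in BAT. All 4 (Pecam1, Cdh5, Col1a1 and Acta2) had at least 1 FPKM in BAT, VAT, SCAT and muscle, and they summed to 57.3 FPKM in BAT, 159.9 in VAT, 80.8 in SCAT and 73.3 in muscle. The endothelial genes Pecam1 (26.6 FPKM in BAT, 25.2 in SCAT) and Cdh5 (11.6 in BAT, 8.40 in SCAT) differed less between these depots than Gja1 did (3.0 and 0.118). Col1a1 (3.90 in BAT, 5.86 in SCAT) and Acta2 (15.1 in BAT, 41.3 in SCAT) went the other way. The brown fat gene Ucp1 had 6552 FPKM in BAT and at most 10.6 elsewhere. The part of any cell type in the Gja1 level was not tested.

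Of 16 other genes used as astrocyte markers, 15 reached 1 FPKM in any tissue. Enriched in cortex were 4 of them, against 8.32% of the names that reached 1 FPKM. The median log2 ratio was 0.16 over the 16 and -1.43 over those names. The 4 were Aldoc (118 FPKM in cortex), the membrane protein Mlc1 (17.8), Gjb6 (7.48) and the GABA transporter Slc6a11 (2.86). The water channel Aqp4 had 31.4 FPKM in cortex, 20.4 in kidney and 15.1 in muscle, and the folate enzyme Aldh1l1 had 144 in liver, 89.6 in kidney and 8.04 in cortex. Glul, the glutamine synthetase that follows glutamate uptake, had 371 FPKM in BAT, 271 in liver and 251 in cortex. The potassium channel Kcnj10 had 0.0818 FPKM in cortex and was under 1 FPKM in every tissue. Whether its reads were assigned to another locus was not tested, so this value may not give its level. For comparison, 6 of the 7 neuronal genes found were enriched in cortex, with a median log2 ratio of 7.01.

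**Figure D4:**
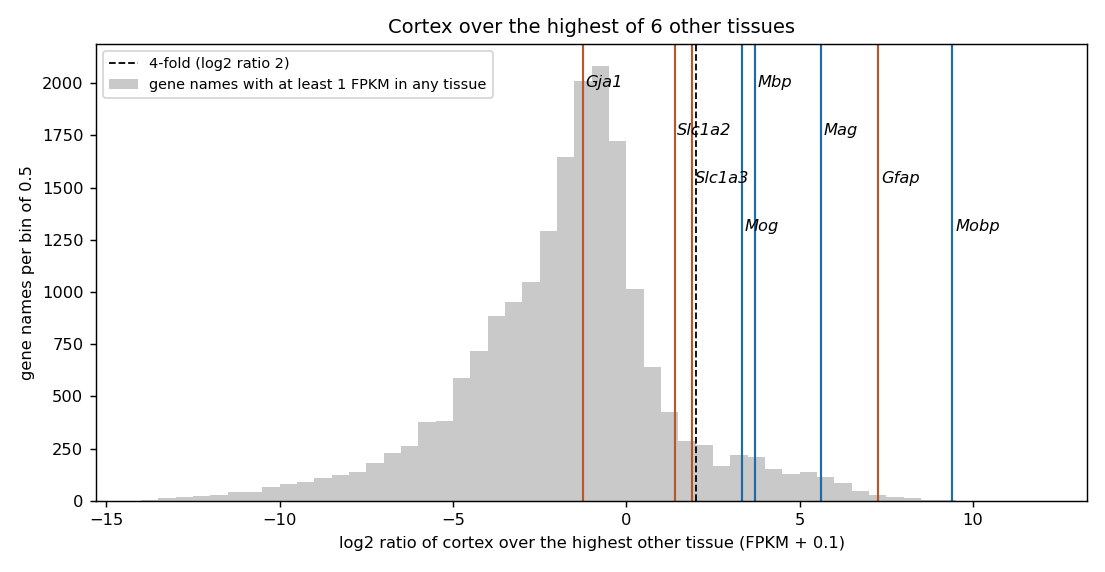
Histogram of the log2 ratio of cortex over the highest other tissue (FPKM + 0.1) for the gene names with at least 1 FPKM in any tissue, in bins of 0.5, with the myelin genes as blue and the astrocyte genes as orange lines and the 4-fold rule dashed. Mobp (9.40), Gfap (7.27) and Mag (5.62) lie far out on the right, Slc1a3 (1.90) and Slc1a2 (1.39) fall short of the rule, and Gja1 (-1.26) near the median of all names (-1.43).

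The genes whose levels across the 7 tissues were nearest to each of the 8 were found by the root mean square difference of log2(FPKM + 0.1), each gene taken relative to its own mean. For Mobp they were Gria2, Gabrb2 and Snap25, and the nearest to Gfap were Dlgap1 and Syt1, which are genes of synapses and neurons. Nearest to Mag were Nmnat2, Tmem63c and Lrrc4b (difference 0.22 to 0.30), and nearest to Mog were Htr5b, Lhx9 and Mir1983 (0.15 to 0.18). For Mbp they were Stmn2, Rgs4 and Krt222 (0.73 to 0.78), and Rgs4 resembled it with 51.4 FPKM in cortex, 4.15 in BAT and 4.13 in muscle. Rgs4 was higher in VAT (3.10 FPKM) and liver (0.460), where Mbp had 0.751 and 0.0498. The measure thus does not set glia apart from neurons, which shared the same cortex library.

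For Slc1a2 the nearest gene was Rapgef4 (1.08 on the same measure), with 86.2 FPKM in cortex and 58.6 in liver, followed by Snord89 and the organic anion transporter Slco1a4. For Slc1a3 they were Gm14053, Negr1 and Tmeff1, and Negr1, a neuronal adhesion protein, had 83.2 FPKM in cortex, 17.0 in BAT, 8.22 in VAT and 6.71 in SCAT. For Gja1 they were Tbkbp1, Gm18609 and Gm10010. Among the 8 genes themselves, Gfap was the closest of the others to Slc1a2 but stood at place 49 of 19086 names, and Mobp was at place 67 for Gfap.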

How the data were processed

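Total RNA was depleted of rRNA and made into directional libraries, 1 per tissue. According to the study's methods and the submitters' processing notes, the authors trimmed reads with flexbar, removed rRNA reads with Bowtie2 2.2.9, aligned to GRCm38 with STAR 2.6.0c and ran Cufflinks 2.2.1 with cuffdiff. The deposited values are FPKM for 94339 loci in 21 pairwise comparisons. The deposited log2 fold changes, the test statistic (a score) and the p-values and q-values are the authors' own comparisons and were not used. Whether cuffdiff was told the library strand is not given in the sources used here.

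Names were split on commas, the 151 loci with status FAIL were dropped, 225 zeros marked LOWDATA were set missing, and the locus with the highest maximum FPKM was used per name. None of the 14 loci of the 8 genes was affected by the filters. FPKM were compared as log2(FPKM + 0.1), and called enriched with at least 1 FPKM and a 4-fold excess. The order of loci gave the strand, by which 75.3% of 62045 pairs of locus and name lie on the annotated strand. On simulated data, in which 200 names were raised 16-fold in cortex, the 4-fold rule called all 200 and 0 others, which checks the code and not its power. The members, gene lists and motifs were chosen with earlier results of these data known. All 8 genes were named in every tissue, with up to 3 nearest other genes each, and listed genes by role; the remaining named genes were chosen after their values were seen. Alternatives covered pseudocount, minimum, fold, scaling, loci, strand and libraries. Gene bounds are from GENCODE and promoter windows from RefSeq (GRCm38.p6). A few genes of the lists and results that rest on them are not reported here. A planned comparison of Slc1a2 and Slc1a3 proteins was not run. Python 3.11.15, pandas 2.3.3, NumPy 2.4.6 and matplotlib 3.10.9 were used.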

Additional observations from a re-analysis of the deposited data

How the results depend on the processing

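With 1 library per tissue and no fragment counts, the precision of an FPKM is unknown, and it cannot be said how many low values rest on few fragments. No recomputed result reversed, but several settings could not move a gene, such as summing loci for a gene with 1 locus. A 16-fold rule left 3 genes enriched in cortex (Mag, Mobp and Gfap), and a 2-fold rule gave 7, with Slc1a2 and Slc1a3. With a pseudocount of 1, 1 gene, Slc1a2, was 4-fold highest in a tissue outside cortex, and Gja1 in BAT was lost, as it also was with a minimum of 5 FPKM. A minimum of 5 FPKM left 2 oligodendrocyte genes and 1 gene of peripheral myelin enriched in cortex. The stricter fold, the larger pseudocount and the higher minimum lower these counts by construction. Loci on the annotated strand only left the same 5 genes enriched in cortex. Leaving out VAT and SCAT, chosen after seeing the data as was the strand setting, gave 6, with Slc1a3 at 2.02. Median ratio scaling moved the log2 values by between -0.31 (SCAT) and 0.23 (muscle) in size factor and changed no call on the 8 genes. No paired analysis was possible because the groups have 1 library each.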

Other observations

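Of 14 other connexins, 9 reached 1 FPKM in any tissue, and 2 of these 9 were enriched in cortex, against 8.32% of the 19122 names that reached 1 FPKM. They were the astrocyte gene Gjb6 (7.48 FPKM) and the oligodendrocyte gene Gjc3 (2.30 FPKM in cortex, 0.407 in liver). Gjb1 and Gjb2, connexins of hepatocytes, had 75.2 and 106 FPKM in liver and 7.0 and 19.9 in kidney. The vascular connexins Gja4 and Gja5 had 2.05 and 1.71 FPKM in BAT and 2.07 and 2.09 in VAT, whereas Gja1 had 3.0 in BAT and 0.425 in VAT.

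Of 9 other intermediate filament genes beside Gfap, all of which reached 1 FPKM in a tissue, 4 were enriched in cortex. Among all names that reached 1 FPKM the share was 8.32%. These 4 are neuronal: Nefl (254 FPKM), Nefm (35.1), Nefh (9.89) and Ina (1.76). Desmin (Des) had 817 FPKM in muscle and 0.137 in cortex. Vimentin (Vim), which many mesenchymal cells carry, had 319 FPKM in BAT, 169 in VAT, 137 in SCAT and 7.06 in cortex.

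S100b, a calcium-binding protein used as an astrocyte marker that adipocytes also make, had 23.3 FPKM in BAT, 13.9 in cortex and at most 1.17 elsewhere. Gldn, which organises nodes of peripheral nerve, had 3.14 FPKM in BAT and at most 0.303 in the other tissues. Cdh19, a cadherin of Schwann cell precursors, had 2.16 FPKM in cortex, 1.72 in BAT, 1.59 in muscle and 0.832 in SCAT.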
